A study of Mus musculus with 9 samples.

Results

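The genes described here encode the subunits of oxidative phosphorylation in the mouse, from both genomes of the cell. They were chosen by symbol from a table of counts per gene: every symbol starting with mt-, with Nduf followed by a, b, c, s or v, with Uqcr, with Atp5 or with Cox4 to Cox8, together with Cyc1, Sdha, Sdhb, Sdhc and Sdhd. This gave 107 members of the 21868 genes in the table, 13 encoded by the mitochondrial genome and 94 by the nuclear genome. Of the nuclear members, 85 are structural subunits and 9 are factors for assembly or organisation (Ndufaf1 to Ndufaf8 and Cox7a2l). Among the nuclear subunits 36 belong to complex I, 4 to complex II, 9 to complex III, 19 to complex IV and 17 to complex V. No measured value entered the choice of symbols.

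RNA from mouse jejunum was sequenced in bulk after 24 h of TPN (total parenteral nutrition, that is, feeding through a vein in place of the gut), of starvation or of sham treatment, with 3 libraries in each group. Each library came from a 5 cm piece of jejunum that was opened lengthwise, and mRNA was selected on oligo(dT) beads. The sources used here give neither the strain, age and sex of the mice nor what was infused or how the sham procedure was done. The labels call the replicates biological without saying that each came from a separate mouse, so p-values may measure only technical spread.

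Oxidative phosphorylation takes electrons from NADH at complex I and from succinate at complex II and passes them through coenzyme Q, complex III and cytochrome c to oxygen at complex IV. Complexes I, III and IV pump protons across the inner mitochondrial membrane, and complex V, the ATP synthase, uses the gradient to make ATP. Complex II is built from nuclear subunits alone, whereas the other complexes join nuclear subunits with subunits that the mitochondrion transcribes from its own genome as long shared transcripts. Absorbing enterocytes spend much of their ATP on ion pumping and nutrient uptake.

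The libraries held 7779877 to 12084278 counts. Levels are given as CPM, reads of a gene per 1000000 counts, with library sizes scaled by the trimmed mean of M values (TMM), and 1 read was worth 0.0798 to 0.119 CPM. Enterocyte markers were present in every library, with all 8 villus markers detected. Sham replicate 2 stood apart in smooth muscle markers, all 10 of which were detected in every library, at a sum of 9541 CPM against 490 to 1407 CPM in the other 8. Starvation replicate 3 had the highest sum of villus markers (88445 CPM) and the lowest sum of the 6 stem cell markers (173 CPM, against 629 to 1130 CPM elsewhere). All 7 pancreatic acinar markers were detected in TPN replicates 1 and 2, starvation replicate 1 and sham replicate 1, with a sum of 16620 CPM in TPN replicate 2 and 1.08 to 4.17 CPM in the other 5 libraries. The 4 brown fat markers, 1 or 2 of them detected in a library, summed to 15.6 CPM in sham replicate 3 and 3.24 CPM in starvation replicate 3. They summed to 0.106 to 1.04 CPM in the other libraries. Of that list Ucp1 and Elovl3 were at 0 reads in all 9 libraries, and Myh4 of the striated muscle list was too. Results with and without the libraries that stood apart are given beside the counts they touch.

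The summed RNA of the 85 nuclear subunits was lower in TPN than in sham, whereas that of the 13 mitochondrial subunits overlapped between the groups. The nuclear sum weights the abundant genes, such as Atp5a1 with a mean of 1190 CPM in sham. Of the 80 nuclear subunits tested, 56 had a negative and 24 a positive log2 fold change in TPN against sham. In starvation against sham 44 were negative and 36 positive. The nuclear subunits summed to 4649, 4377 and 4579 CPM in the TPN libraries, 4695, 5063 and 6149 CPM in the starvation libraries and 6742, 6337 and 6932 CPM in the sham libraries. TPN lay below sham without overlap, and so did starvation, with starvation replicate 3 close under the lowest sham library. The mitochondrial subunits summed to 89060, 64719 and 81353 CPM in TPN, 64289, 79130 and 90687 CPM in starvation and 73696, 80140 and 64240 CPM in sham, and the 3 groups overlapped. As a share of all counts the mitochondrial subunits took 6.98% to 9.46% in TPN, 6.92% to 8.23% in starvation and 6.38% to 7.24% in sham.

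Each library held more mitochondrial than nuclear subunit reads, and the ratio was highest in TPN. There were 19.2, 14.8 and 17.8 mitochondrial reads per nuclear subunit read in TPN, 13.7, 15.6 and 14.7 in starvation and 10.9, 12.6 and 9.27 in sham. Sham did not overlap with either other group, while TPN and starvation overlapped. The ratio needs no scaling between libraries. It is a description of sums over members, and no test was made of it. In bulk tissue, fewer cells of a type and less RNA per cell cannot be told apart. The villus marker sum moved with the nuclear subunits in TPN, at 22403 to 27253 CPM against 35332 to 66225 CPM in sham, but was 22164 to 88445 CPM in starvation. Fibroblast markers, all 5 detected in every library, summed to 119 to 185 CPM in TPN and 118 to 199 CPM in starvation, below sham at 294 to 900 CPM. The 8 striated muscle markers, 2 to 6 of them detected in a library, summed to 3.54 to 6.41 CPM in TPN and 5.81 to 14.6 CPM in starvation, below sham at 22.4 to 113 CPM. Both lists thus lay below sham without overlap in TPN and in starvation, as the nuclear sum did. The part of these cell types in the fall of the nuclear sum was not tested.

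**Figure D1:**
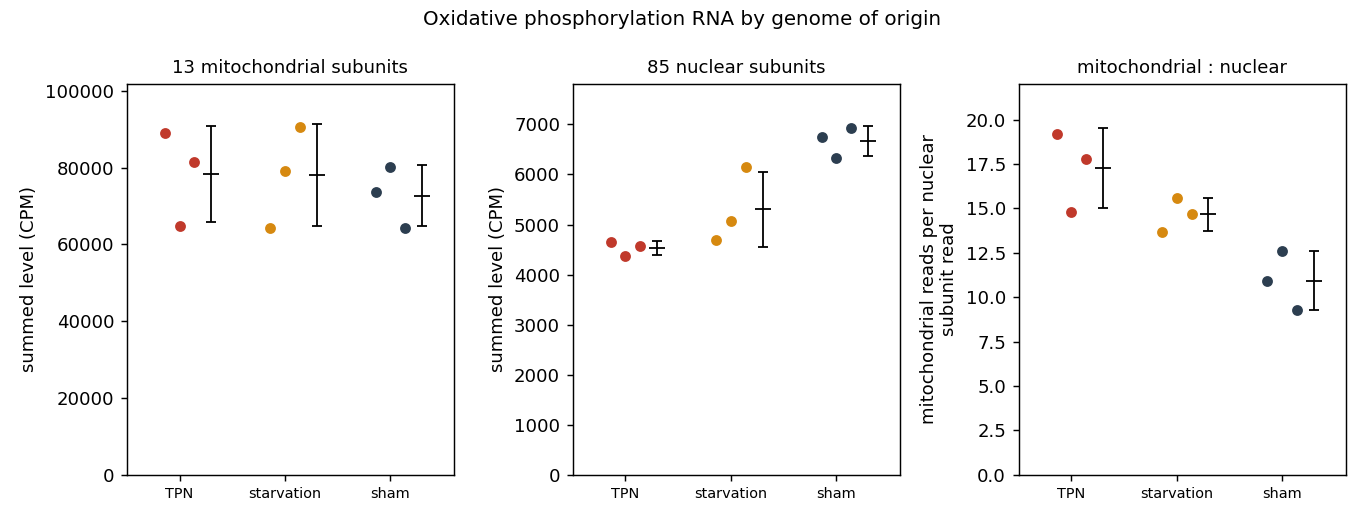
Summed level (CPM, TMM scaled) of the 13 mitochondrial subunits and of the 85 nuclear subunits, and mitochondrial reads per nuclear subunit read, in each library of the TPN, starvation and sham groups; points are libraries and bars are the mean ± SD of 3. The nuclear sum is 4377 to 4649 CPM in TPN against 6337 to 6932 CPM in sham, whereas the mitochondrial sums overlap.

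Of the 107 members, 102 had enough reads to be tested, including all 13 mitochondrial ones. The others were Ndufa1, Cox4i2, Cox7b2, Cox8b and Cox8c. A member was called when the adjusted p of edgeR's quasi-likelihood test was under 0.05 over all 14668 genes tested. In TPN against sham 2 members were called higher and 10 lower, where 3.48% of all genes tested were called higher and 5.12% lower. In starvation against sham 2 were called higher and 3 lower, against 2.55% and 1.14% of all genes. In TPN against starvation 2 were called higher and 2 lower, against 1.94% and 3.9% of all genes. The counts of calls by complex and by list below are to be read beside these shares. Over all genes DESeq2 called 1035 higher and 1386 lower in TPN against sham, and limma voom 524 and 723. In starvation against sham DESeq2 called 997 and 657, and limma voom 301 and 143. In TPN against starvation DESeq2 called 692 and 1099, and limma voom 300 and 532. No mitochondrial member was called against sham by edgeR, where 2 of the 13 in TPN and 0 in starvation had an unadjusted p under 0.05. DESeq2 called 1 in TPN and limma voom 0, and both called 0 in starvation. The comparisons with sham share the same 3 sham libraries.

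Fold changes of the nuclear subunits were shifted downward in TPN beyond those of all genes. Their median log2 fold change in TPN against sham was -0.34 over 80 tested subunits, against 0.10 for the 13 mitochondrial subunits and -0.0201 for all genes tested. In starvation against sham the medians were -0.15 for nuclear subunits, 0.04 for mitochondrial subunits and -0.00783 for all genes. In TPN against starvation they were -0.18, 0.09 and -0.0305. With the smooth muscle level as a covariate the nuclear median was -0.15 in TPN against sham and 0.00 in starvation against sham. When both sham replicate 2 and starvation replicate 3 were dropped, the nuclear medians were -0.22 in TPN against sham, -0.18 in starvation against sham and -0.03 in TPN against starvation. Scaling by library totals gave -0.15 in TPN against sham and 0.00 in TPN against starvation, while the median of all genes shifted by 0.19 and 0.14. The starvation median was -0.05, -0.09 and -0.25 without starvation replicates 1, 2 and 3 and -0.09 without sham replicate 2. The median of TPN against starvation was -0.09 without TPN replicate 2 and -0.01 without starvation replicate 3. In TPN, 35 of the 80 nuclear subunits lay below sham in all 3 libraries without overlap and 13 lay above, while over all genes 21.4% lay below and 21.3% above. In starvation 17 lay below and 17 above sham, where 11.2% and 13.9% of all genes did.

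The counts of calls changed with single libraries, over all genes as well as over members, and all 9 libraries share the estimate of spread. The 10 lower calls in TPN against sham became 1 without any one of the TPN replicates, and 3, 9 and 2 without sham replicates 1, 2 and 3. They became 11, 5 and 23 without starvation replicates 1, 2 and 3. Over all genes the 751 lower calls became 133, 125 and 129 without TPN replicates 1, 2 and 3. They became 347, 597 and 253 without sham replicates 1, 2 and 3, and 852, 431 and 1705 without those of starvation. In starvation against sham the 3 lower calls became 21 without starvation replicate 3, 1 without sham replicate 2 and 0 without any one of the other 7 libraries. The 167 lower calls over all genes became 794, 99 and 10 to 80 in the same fits. In TPN against starvation 4 members were higher and 0 lower without starvation replicate 3, and 3 higher and 4 lower without sham replicate 2. Those fits called 482 genes higher and 593 lower, and 465 higher and 783 lower. With sham replicate 2 and starvation replicate 3 both left out, 24 members were lower and 11 higher in TPN against sham. In starvation against sham 26 were lower and 8 higher. Calls also rose over all 14855 genes tested in that fit, to 2193 lower and 2232 higher in TPN. In starvation they rose to 1337 lower and 1612 higher. With the smooth muscle level as a covariate, 2 members were lower and 0 higher in TPN, 1 lower and 0 higher in starvation. That fit called 343 genes lower and 166 higher in TPN, and 95 lower and 134 higher in starvation. Only Atp5g1 in TPN against sham passed the test with any single library left out.

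**Figure D2:**
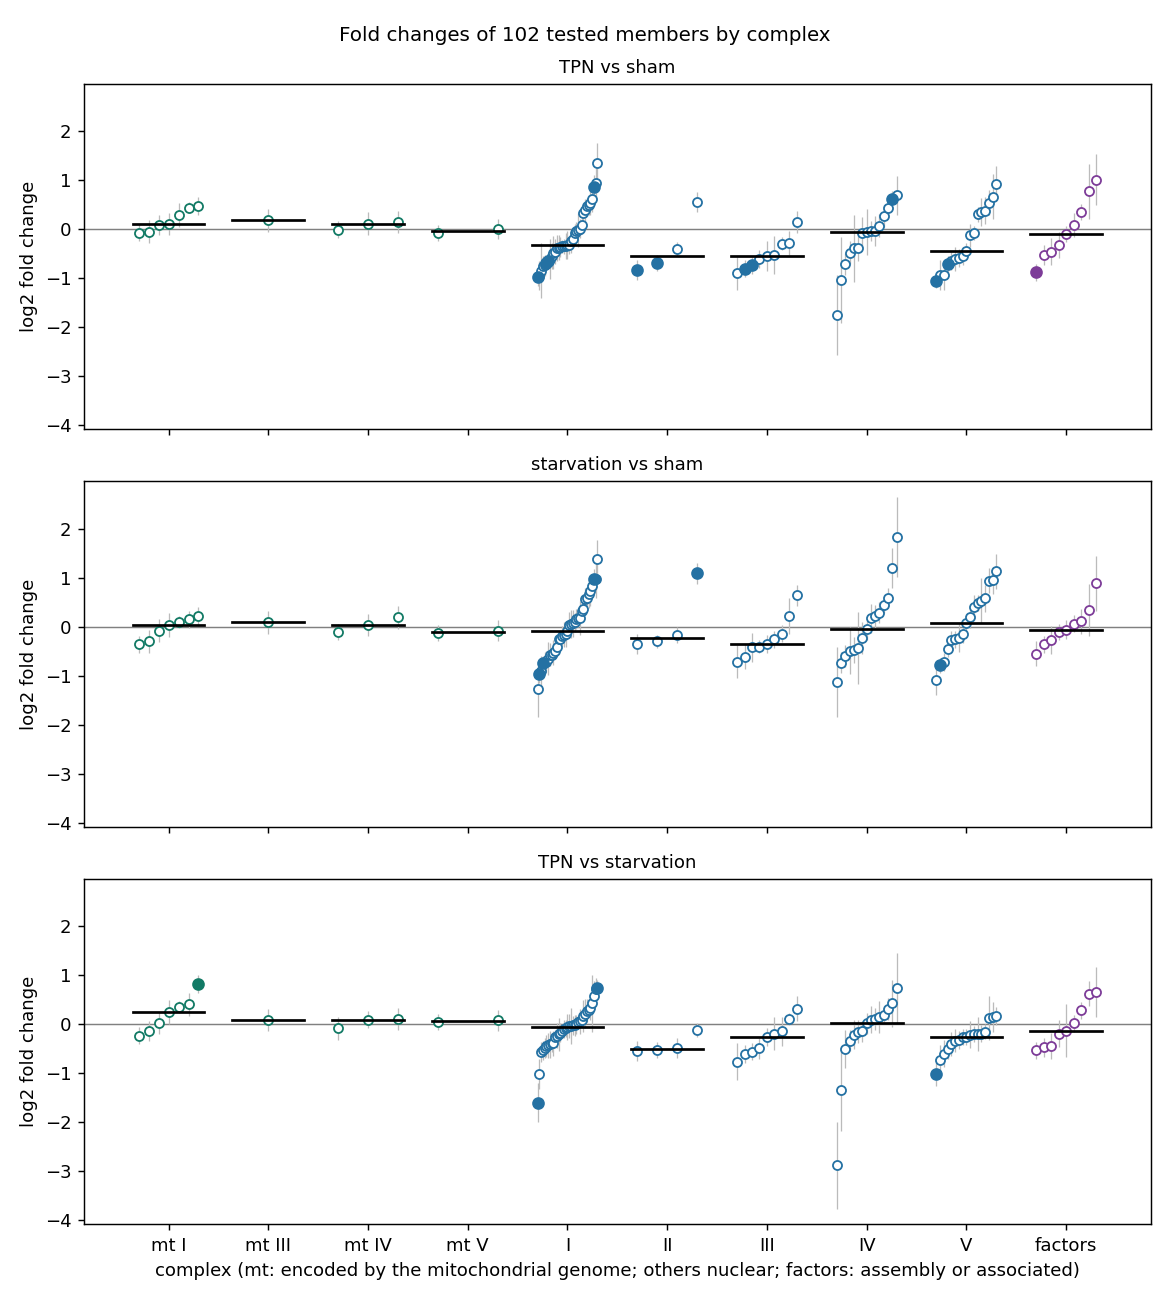
Log2 fold change of each of the 102 tested members (points, with SE bars) in TPN against sham, starvation against sham and TPN against starvation, by complex and genome of origin. Filled points passed the edgeR test at an adjusted p under 0.05 and black lines are medians; in TPN against sham the nuclear medians of complexes I, II, III and V lie between -0.32 and -0.55, and the mitochondrial ones between -0.04 and 0.18.

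Complex I had 3 nuclear subunits lower and 1 higher in TPN, of 35 tested, with a median log2 fold change of -0.32. Over all genes tested 5.12% were called lower and 3.48% higher. Ndufs8, a core subunit that carries iron-sulphur clusters on the way from NADH to coenzyme Q, had 22.7, 17.5 and 24.9 CPM in TPN, 18.6, 22.7 and 25.1 CPM in starvation and 39.5, 49.4 and 40 CPM in sham. All TPN and starvation libraries lay below every sham library. Its log2 fold change was -0.98 ± 0.19 (± SE) in TPN (edgeR adjusted p = 0.0157) and -0.96 ± 0.19 in starvation (edgeR adjusted p = 0.0311).

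Ndufb10, an accessory subunit of the membrane arm, also fell in both groups. It had 54.8, 53.8 and 53.5 CPM in TPN, 46.1, 47.3 and 59.7 CPM in starvation and 78, 93.2 and 84.3 CPM in sham. The log2 fold change was -0.66 ± 0.14 in TPN (edgeR adjusted p = 0.0224) and -0.74 ± 0.14 in starvation (edgeR adjusted p = 0.0293). Ndufv1, which binds NADH and its flavin, had 95.4, 97.7 and 93.9 CPM in TPN, 93.7, 100 and 120 CPM in starvation and 153, 143 and 169 CPM in sham. It fell in TPN (-0.70 ± 0.14, edgeR adjusted p = 0.0187), and in starvation its value of -0.57 ± 0.14 had an edgeR adjusted p of 0.0566. The TPN libraries of Ndufb10 and Ndufv1 were closer to each other than the libraries of the other groups.

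Other complex I subunits went the other way. Ndufb2, an accessory subunit, had 9.81, 8.46 and 8.57 CPM in TPN, 7.82, 6.02 and 8.33 CPM in starvation and 4.91, 4.69 and 5.08 CPM in sham, and rose in TPN by 0.87 ± 0.23 (edgeR adjusted p = 0.0475). Ndufv2, the core subunit that pairs with Ndufv1 in the NADH-oxidising module, had 11.5, 11 and 9.61 CPM in TPN, 14, 16.7 and 14.1 CPM in starvation and 8.54, 6.72 and 7.58 CPM in sham. It rose in starvation by 0.97 ± 0.20 (edgeR adjusted p = 0.0341) and was at 0.49 ± 0.20 in TPN (edgeR adjusted p = 0.152). These partners of the same module had values of opposite sign against sham, in TPN and in starvation.

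In TPN against starvation, complex I had 1 nuclear subunit higher and 1 lower. Ndufab1, the mitochondrial acyl carrier protein, had 37.7, 35.9 and 32.6 CPM in TPN, 20.4, 25 and 18.3 CPM in starvation and 26.6, 23.2 and 26.5 CPM in sham. It was higher in TPN than in starvation by 0.74 ± 0.16 (edgeR adjusted p = 0.0297). Ndufs5 had 4.04, 1.55 and 3.76 CPM in TPN, 7.9, 8.34 and 12.5 CPM in starvation and 5.89, 3.41 and 5.16 CPM in sham, and was lower by -1.60 ± 0.40 (edgeR adjusted p = 0.0475). It is a low gene, and starvation replicate 3 was the highest of the 9. Ndufb8 was at 0.73 ± 0.21 in the same comparison (edgeR adjusted p = 0.0715).

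**Figure D3:**
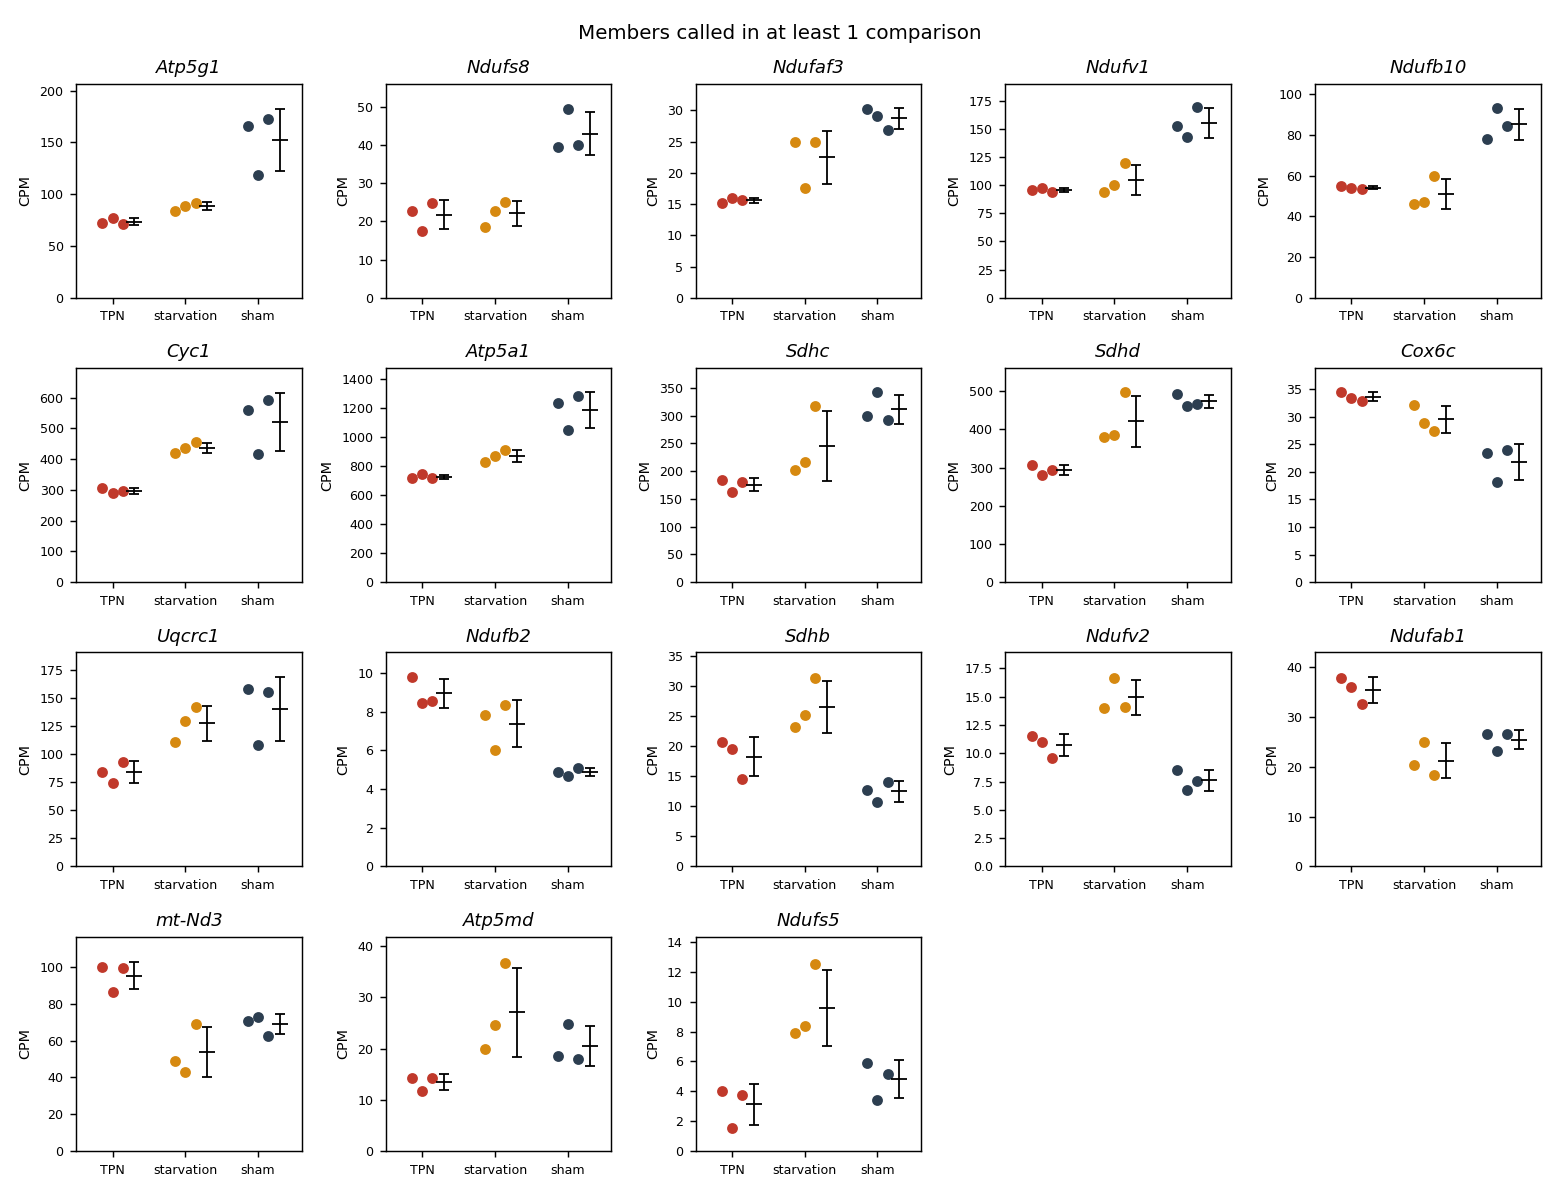
CPM of the members called in at least 1 comparison, in each library of the TPN, starvation and sham groups; points are libraries and bars are the mean ± SD of 3. Most panels have TPN lowest, as Cyc1 at 289 to 307 CPM in TPN against 415 to 593 CPM in sham, while Ndufb2, Cox6c, Sdhb and Ndufv2 have sham lowest.

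Complex II, succinate dehydrogenase, also works in the tricarboxylic acid cycle, and its 4 subunits did not move together. Sdhc and Sdhd, which anchor the enzyme in the membrane, fell in TPN. Sdhd had 306, 280 and 295 CPM in TPN, 379, 386 and 499 CPM in starvation and 494, 462 and 466 CPM in sham, a log2 fold change of -0.69 ± 0.17 in TPN (edgeR adjusted p = 0.0366). Sdhc had 184, 162 and 181 CPM in TPN, 202, 216 and 317 CPM in starvation and 300, 342 and 292 CPM in sham, a log2 fold change of -0.83 ± 0.20 in TPN (edgeR adjusted p = 0.0360). For both, starvation replicate 3 reached the sham libraries and the other starvation libraries lay below them.

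Of the 2 catalytic subunits, Sdha had values of the same sign as the anchors, and Sdhb went the other way. DESeq2 called 3 of the 4 complex II subunits lower in TPN. Sdha, the flavoprotein, had 211, 188 and 204 CPM in TPN, 208, 216 and 229 CPM in starvation and 292, 245 and 265 CPM in sham. Its log2 fold change was -0.41 ± 0.14 in TPN (edgeR adjusted p = 0.104) and -0.30 ± 0.14 in starvation (edgeR adjusted p = 0.241). Sdhb, the iron-sulphur subunit, had 20.8, 19.5 and 14.6 CPM in TPN, 23.2, 25.2 and 31.4 CPM in starvation and 12.7, 10.7 and 14.1 CPM in sham. Sham was lowest and starvation highest, with no overlap among the 3 groups. Sdhb rose in starvation by 1.09 ± 0.21 (edgeR adjusted p = 0.0299) and was at 0.55 ± 0.21 in TPN (edgeR adjusted p = 0.125). Per kilobase of transcript the sham levels were 385 CPM for Sdhd, 98.1 for Sdhc, 92.2 for Sdha and 10.9 for Sdhb. The rise of Sdhb in starvation passed the edgeR test without TPN replicate 3, starvation replicate 1 or starvation replicate 3. It did not pass without each of the other 6 libraries.

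Complex III had 2 nuclear subunits lower in TPN, of 9 tested, and the median log2 fold change was -0.55. Cyc1, the cytochrome c1 that passes electrons to cytochrome c, had 307, 289 and 295 CPM in TPN, 421, 436 and 454 CPM in starvation and 558, 415 and 593 CPM in sham. Its log2 fold change in TPN was -0.81 ± 0.17 (edgeR adjusted p = 0.0247). TPN lay below both other groups, while starvation overlapped with sham through sham replicate 2. Uqcrc1, a core protein of the matrix side, had 84.6, 74.5 and 93.5 CPM in TPN, 111, 130 and 142 CPM in starvation and 158, 108 and 156 CPM in sham, and fell in TPN by 0.74 on the log2 scale (SE 0.18, edgeR adjusted p = 0.0395). Uqcrfs1, the Rieske iron-sulphur protein, had 371, 324 and 335 CPM in TPN, 355, 383 and 497 CPM in starvation and 596, 482 and 499 CPM in sham. Its value of -0.61 ± 0.18 in TPN had an edgeR adjusted p of 0.0697.

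No nuclear complex III subunit was called by edgeR in starvation against sham, where 3 had an unadjusted p under 0.05, DESeq2 called 1 and limma voom 0. None was called by edgeR in TPN against starvation either, where 3 had an unadjusted p under 0.05, DESeq2 called 2 and limma voom 0. In starvation the smallest adjusted p was that of Uqcrc2, the second core protein, at -0.41 ± 0.13 (edgeR adjusted p = 0.108). Uqcrh, the hinge protein, was at 0.64 ± 0.22 (edgeR adjusted p = 0.123). Uqcr10 was at -0.61 ± 0.25 (edgeR adjusted p = 0.178). In TPN against starvation Uqcrc1 was at -0.60 ± 0.18 (edgeR adjusted p = 0.0882), Cyc1 at -0.56 ± 0.17 and Uqcrh at -0.49 ± 0.22.

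Complex IV, cytochrome c oxidase, had the nuclear median closest to 0 in TPN, -0.06 over 15 tested, with 1 called higher. The sum of its 19 nuclear subunits was still lower in TPN than in sham. It was 480, 436 and 456 CPM in TPN, 355, 403 and 596 CPM in starvation and 516, 672 and 602 CPM in sham. TPN lay below sham without overlap, while starvation overlapped with sham. Cox6c had 34.5, 33.5 and 32.9 CPM in TPN, 32.2, 28.9 and 27.5 CPM in starvation and 23.4, 18.1 and 23.9 CPM in sham. It rose in TPN by 0.62 ± 0.15 (edgeR adjusted p = 0.0378) and was at 0.44 ± 0.15 in starvation (edgeR adjusted p = 0.130). All 9 libraries ordered by group, with sham lowest. Cox6a1 went the other way, with 126, 121 and 124 CPM in TPN, 91, 108 and 168 CPM in starvation and 180, 215 and 212 CPM in sham. Its log2 fold changes of -0.71 ± 0.22 in TPN and -0.73 ± 0.22 in starvation had edgeR adjusted p of 0.0720 and 0.0917. Cox5a was at 1.20 ± 0.40 in starvation (edgeR adjusted p = 0.122), at 6.70, 7.28 and 8.10 CPM against 3.53, 1.49 and 4.50 CPM in sham.

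Several complex IV subunits, and the associated Ndufa4, have isoforms known from muscle, lung, testis or low oxygen. For Cox4i1, Cox6a1, Cox7b and Cox8a, the broadly used isoform carried nearly all reads of its pair. Per kilobase of transcript Cox4i1 stood at 125 CPM in TPN, 117 in starvation and 162 in sham, and Cox4i2 at 0.44, 1.28 and 0.304. Cox6a1 stood at 217, 214 and 354 CPM per kilobase in the same order, and its striated muscle partner Cox6a2 at 0.489, 1.12 and 1.52. Cox8a stood at 221, 204 and 309 CPM per kilobase, and Cox8b had 0 reads in all libraries, which allows up to 0.239 to 0.357 CPM in a library. Cox8c also had 0 reads. Cox7b stood at 19.9, 25.1 and 20.5 CPM per kilobase in TPN, starvation and sham, and its tissue isoform Cox7b2 had 0 or 1 read in each library.

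The pairs of Cox7a2, Cox6b1 and Ndufa4 were less unequal. Cox7a2 stood at 13.2, 11.9 and 14 CPM per kilobase in TPN, starvation and sham, and Cox7a1 at 5.19, 3.88 and 5.39. Cox6b1 stood at 20.7, 22.9 and 15.2 CPM per kilobase, and Cox6b2 at 1.76, 13 and 3.64. The starvation value of Cox6b2 rested on starvation replicate 3, with 2.07, 2.74 and 18 CPM in starvation, 0.824, 1.31 and 0.961 CPM in TPN and 0.982, 3.73 and 1.67 CPM in sham. In that library Cox6b2 exceeded Cox6b1, which had 13.9 CPM. The Cox6b2 log2 fold change of -2.88 ± 0.88 in TPN against starvation had an edgeR adjusted p of 0.0880. Ndufa4 stood at 18.4, 14.8 and 15.3 CPM per kilobase in TPN, starvation and sham, and Ndufa4l2 at 1.43, 0.827 and 1.86. Of the 12 genes in these pairs other than Cox7b and Cox7b2, 10 were tested and none was called in any comparison by edgeR. DESeq2 called 1 in each comparison and limma voom 0, and 1 had an unadjusted p under 0.05 in TPN, 3 in starvation and 1 in TPN against starvation.

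Complex V had 2 nuclear subunits lower in TPN, of 17 tested, with a median log2 fold change of -0.45. Atp5a1, the alpha subunit of the catalytic head, had 719, 745 and 721 CPM in TPN, 828, 873 and 910 CPM in starvation and 1234, 1050 and 1286 CPM in sham. The groups did not overlap and TPN was lowest, with a log2 fold change of -0.71 ± 0.16 in TPN (edgeR adjusted p = 0.0305) and -0.45 ± 0.16 in starvation (edgeR adjusted p = 0.139). Atp5b, the beta subunit that carries the catalytic sites, had 427, 430 and 443 CPM in TPN, 316, 410 and 434 CPM in starvation and 622, 558 and 724 CPM in sham. Its values of -0.55 ± 0.18 in TPN and -0.72 ± 0.18 in starvation had edgeR adjusted p of 0.0912 and 0.0636. Atp5f1 of the peripheral stalk was at -0.65 ± 0.19 in TPN (edgeR adjusted p = 0.0694).

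Atp5g1 fell in TPN and in starvation. Atp5g1, Atp5g2 and Atp5g3 encode the same mature c subunit, the ring that turns as protons pass, behind different import sequences. Atp5g1 had 71.8, 77.2 and 71.4 CPM in TPN, 84.2, 88.5 and 91.9 CPM in starvation and 166, 118 and 173 CPM in sham. The log2 fold change was -1.05 ± 0.16 in TPN (edgeR adjusted p = 0.00682) and -0.79 ± 0.16 in starvation (edgeR adjusted p = 0.0333). The call in TPN held in all 9 fits that left out 1 library and in the 12 other alternatives, whereas the call in starvation held only without sham replicate 2 or starvation replicate 3 among the 9.

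The other c subunit genes did not pass the test. Atp5g3 had 38.3, 31.8 and 45 CPM in TPN, 52.8, 40 and 97.4 CPM in starvation and 66.6, 87.8 and 67.1 CPM in sham, a value of -0.94 ± 0.30 in TPN (edgeR adjusted p = 0.0808). Atp5g2 had 6.59, 7.15 and 7.77 CPM in TPN, 11.7, 7.49 and 9.14 CPM in starvation and 5.30, 4.27 and 5.25 CPM in sham. All TPN and starvation libraries lay above sham, and the values were 0.54 ± 0.25 in TPN (edgeR adjusted p = 0.204) and 0.94 ± 0.25 in starvation (edgeR adjusted p = 0.0709). Of the 50-base windows of Atp5g2 transcripts 38.3% also occur in another gene, against 11.1% for Atp5g1 and 0% for Atp5g3.

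In TPN against starvation 1 complex V subunit was called. Atp5md, a small membrane subunit, had 14.3, 11.7 and 14.3 CPM in TPN, 19.9, 24.6 and 36.8 CPM in starvation and 18.6, 24.9 and 18 CPM in sham, with a log2 fold change of -1.01 ± 0.25 (edgeR adjusted p = 0.0448). Among the 9 fits that left out 1 library the call held only without sham replicate 2 or starvation replicate 1.

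**Figure D4:**
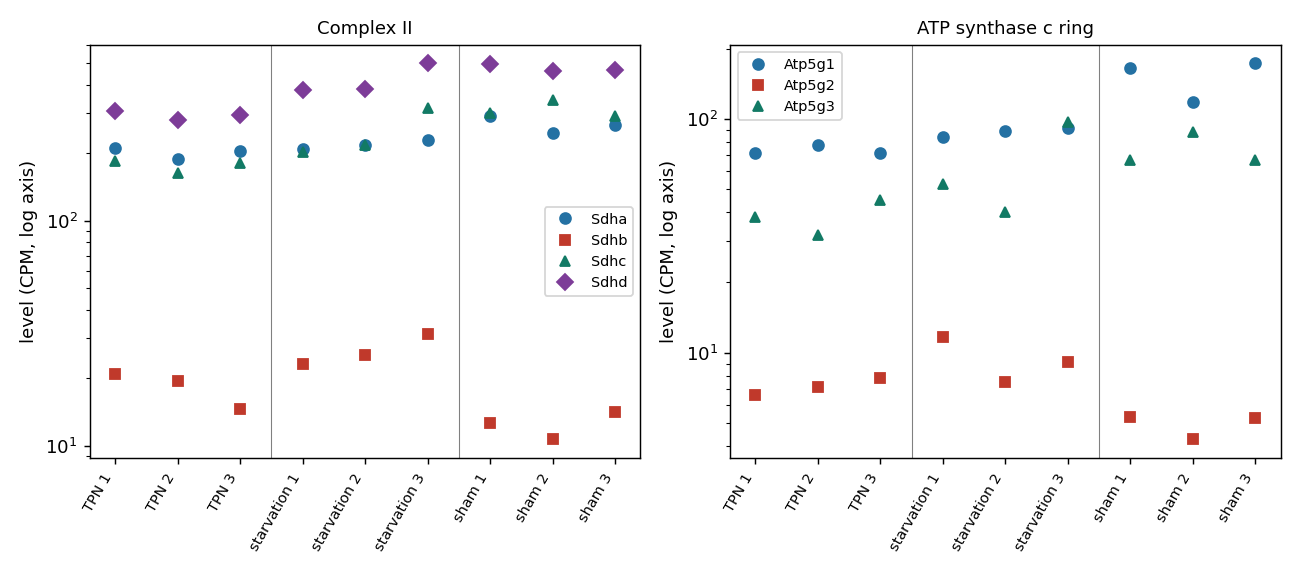
CPM on a log axis of the 4 complex II subunits and of the 3 genes of the ATP synthase c ring in each of the 9 libraries. Sdhb and Atp5g2 are lowest in the sham libraries (10.7 to 14.1 CPM and 4.27 to 5.30 CPM), where Sdhd and Atp5g1 are at 462 to 494 CPM and 118 to 173 CPM.

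The c subunit genes make the same mature protein, but Atp5g2 had values against sham of opposite sign to those of Atp5g1 and Atp5g3. The 120 bases before the start of each are shown with those of Sdhd, whose fall is set against the rise of Sdhb above. The sequences are RefSeq's on GRCm38.p6, all read from the minus strand. Capitals mark a match, on either strand, to one of 4 motifs searched for, namely NRF1 (GCGCATGCG), the ETS family with GABPA (CCGGAAG), YY1 (AAGATGGCG) and ERR alpha (TCAAGGTCA), factors known for nuclear genes of the respiratory chain. Atp5g1 lies at chr11:96075632-96075751, Atp5g2 at chr15:102671048-102671167, Atp5g3 at chr2:73911327-73911446 and Sdhd at chr9:50603850-50603969.
Atp5g1: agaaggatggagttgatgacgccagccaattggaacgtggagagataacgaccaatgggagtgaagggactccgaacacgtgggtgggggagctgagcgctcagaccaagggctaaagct
Atp5g2: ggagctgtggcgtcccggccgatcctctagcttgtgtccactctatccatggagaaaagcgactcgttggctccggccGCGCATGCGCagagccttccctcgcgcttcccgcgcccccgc
Atp5g3: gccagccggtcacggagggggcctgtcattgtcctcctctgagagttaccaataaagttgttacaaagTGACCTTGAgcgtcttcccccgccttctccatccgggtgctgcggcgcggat
Sdhd: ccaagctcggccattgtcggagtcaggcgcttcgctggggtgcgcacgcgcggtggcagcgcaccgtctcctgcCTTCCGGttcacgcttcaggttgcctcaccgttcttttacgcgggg

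The Atp5g2 stretch holds the NRF1 letters on both strands, which overlap because the motif nearly reads the same backwards. The Atp5g3 stretch holds the ERR alpha letters and the Sdhd stretch the ETS letters, both on the opposite strand. No match was found in the Atp5g1 stretch. Beyond the stretches shown, Sdhb held the ETS letters 6 bases past its start and Sdhd the ERR alpha letters 36 bases past its start. The ETS letters were thus found in both Sdhd and Sdhb. A match is a description of letters and not a measured site.

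The same motifs were counted in the window of 250 bases before to 50 after each start, for the 75 nuclear members off chromosome 18 with a RefSeq window and for 16571 genes in all. The NRF1 letters were found in 13.3% of members and 2.75% of all genes. The ETS letters were found in 25.3% and 13.3%, the YY1 letters in 10.7% and 2.24%, and the ERR alpha letters in 2.67% and 0.386%. These are shares of letters in windows, without a test, and 17 nuclear members had no window. The 16571 genes include ones with too few reads to be tested, whereas nearly all members were tested. The backgrounds were not matched for level or base composition.

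Among the 9 assembly and associated factors 1 was lower in TPN, where 5.12% of all genes tested were called lower. Ndufaf3, an assembly factor of complex I, had 15.2, 16 and 15.6 CPM in TPN, 25, 17.5 and 24.9 CPM in starvation and 30.2, 29.1 and 26.9 CPM in sham, a log2 fold change of -0.88 ± 0.17 in TPN (edgeR adjusted p = 0.0169). The 3 TPN libraries lay below every other library. Ndufaf8 was at -0.53 ± 0.20 in TPN (edgeR adjusted p = 0.125). Cox7a2l, which links complexes III and IV in supercomplexes, had 253, 235 and 240 CPM in TPN, 208, 193 and 196 CPM in starvation and 181, 234 and 158 CPM in sham, at 0.35 ± 0.17 in TPN (edgeR adjusted p = 0.220). In starvation Ndufaf4 had the smallest adjusted p, at -0.55 ± 0.25 (edgeR adjusted p = 0.219).

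The 13 mitochondrial members had log2 fold changes against sham between -0.08 and 0.47 in TPN and between -0.36 and 0.21 in starvation. mt-Co1, the catalytic subunit of complex IV, had 39778, 28988 and 35075 CPM in TPN, 29735, 36487 and 43376 CPM in starvation and 32317, 35262 and 28354 CPM in sham, and its log2 fold change in TPN was 0.11 ± 0.23. mt-Cytb, the cytochrome b of complex III, had 16159, 11536 and 14419 CPM in TPN, 10700, 13254 and 15703 CPM in starvation and 12667, 13598 and 11036 CPM in sham, at 0.18 ± 0.23 in TPN. The groups overlapped for both genes. Replicate 2 was the lowest TPN library for all 13 genes and had the highest acinar marker sum. The part of acinar RNA was not tested.

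The complex I genes that build the proton-pumping membrane arm were at means of 8829 ± 1661 CPM in TPN, 8622 ± 1446 CPM in starvation and 9130 ± 1273 CPM in sham for mt-Nd1 (SD, n = 3). mt-Nd2 averaged 4696 ± 773, 3540 ± 592 and 4372 ± 772 CPM in the same groups. mt-Nd4 averaged 6359 ± 1102, 5344 ± 1057 and 5183 ± 829 CPM. mt-Nd5 averaged 6291 ± 914, 6875 ± 917 and 5962 ± 424 CPM. For these 4 genes no difference between groups passed the edgeR test, and the largest log2 fold change was 0.41 ± 0.23 for mt-Nd2 in TPN against starvation. mt-Nd6, the only member on the opposite strand of the mitochondrial genome, averaged 2667 ± 318, 3118 ± 286 and 2807 ± 218 CPM. It overlaps mt-Nd5 by 14 bases, and no step that marks the strand is named for these libraries. Without such a step, reads from either strand over any part of mt-Nd6 would count as mt-Nd6, so its level is uncertain.

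The other 6 genes were counted far lower. mt-Co2 averaged 224 ± 10.2 CPM in TPN, 209 ± 40.7 in starvation and 226 ± 19.6 in sham, and mt-Co3 averaged 207 ± 26.3, 191 ± 41.1 and 186 ± 49.9 CPM. mt-Atp6, the proton channel subunit of complex V, averaged 213 ± 28.1, 202 ± 30.4 and 213 ± 49.8 CPM, and mt-Atp8 averaged 79.1 ± 10.4, 76.6 ± 3.59 and 83.9 ± 18.4 CPM. mt-Atp8 overlaps mt-Atp6 by 43 bases. For these 4 genes the log2 fold changes of the 3 comparisons ran from -0.13 to 0.15, with groups that overlapped.

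mt-Nd3 was the only mitochondrial member called in any comparison. It had 100, 86.8 and 99.5 CPM in TPN, 49, 43.1 and 69.2 CPM in starvation and 70.8, 73.1 and 62.7 CPM in sham. TPN lay above both other groups, with a log2 fold change of 0.83 ± 0.18 against starvation (edgeR adjusted p = 0.0297) and 0.47 ± 0.18 against sham (edgeR adjusted p = 0.128). With 1 library left out, the call against starvation held only without sham replicate 2 or starvation replicate 3. mt-Nd4l had 67.8, 64 and 66.1 CPM in TPN, 48, 54.4 and 52.8 CPM in starvation and 47.4, 53.2 and 45.5 CPM in sham, also with TPN above the other groups. Its value against sham was 0.44 ± 0.12 (edgeR adjusted p = 0.0530).

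Both genes share nearly all of their sequence with a copy of mitochondrial DNA in the nuclear genome. On GRCm38, pseudogenes at chr1:24611535-24616197, annotated on the minus strand by GENCODE M21, repeat the mitochondrial genome from inside mt-Co1 to inside mt-Nd4. Of the 50-base windows of mt-Nd3 98% also occur in another gene, and the share was 98.8% for mt-Nd4l, 99.5% for mt-Atp6, 99.9% for mt-Co3 and 100% for mt-Co2. The first 120 bases of mt-Nd3 (chrM:9459-9806, plus strand) and of its copy Gm28438 (chr1:24612775-24613119, minus strand) are shown because mt-Nd3 is the mitochondrial gene that passed a test, with the differing base in capitals.
mt-Nd3: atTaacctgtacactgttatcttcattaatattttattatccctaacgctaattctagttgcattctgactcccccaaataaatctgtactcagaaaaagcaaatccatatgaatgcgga
Gm28438: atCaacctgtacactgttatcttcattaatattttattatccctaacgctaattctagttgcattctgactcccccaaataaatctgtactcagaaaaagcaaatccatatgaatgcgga

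Over the 345 bases of Gm28438 the single difference was T3C, with mt-Nd3 first and positions counted from 1 at the start of the gene. The aligned copies of mt-Nd4l, mt-Co2, mt-Co3, mt-Atp6 and mt-Nd4 had 0 differing bases. No source used here says how reads that fit several places were handled, so the counts of these genes are uncertain.

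The 5 genes with at least 98% of windows shared were the ones with low counts, together with mt-Atp8. Per kilobase, mt-Co2 stood at 327 CPM in TPN, 306 in starvation and 330 in sham, mt-Nd4l at 222, 174 and 164, and mt-Nd3 at 275, 154 and 198. mt-Co1, with 51.1% of windows shared, stood at 22404, 23646 and 20697 CPM per kilobase, and mt-Cytb, with 0% shared, at 12271, 11555 and 10868. mt-Atp8 stood at 388, 376 and 411 CPM per kilobase. It has no window in another annotated transcript, but it lies within the stretch repeated on chromosome 1, between the copies of mt-Co2 and mt-Atp6, where no pseudogene is annotated. Windows were searched in annotated transcripts only, so its share of 0% does not say that it has no nuclear copy. The 6 mitochondrial members with under 50% of their windows in another annotated transcript, mt-Atp8 among them, had a median log2 fold change of 0.01 in TPN against sham, and the other 7 had 0.15.

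**Figure D5:**
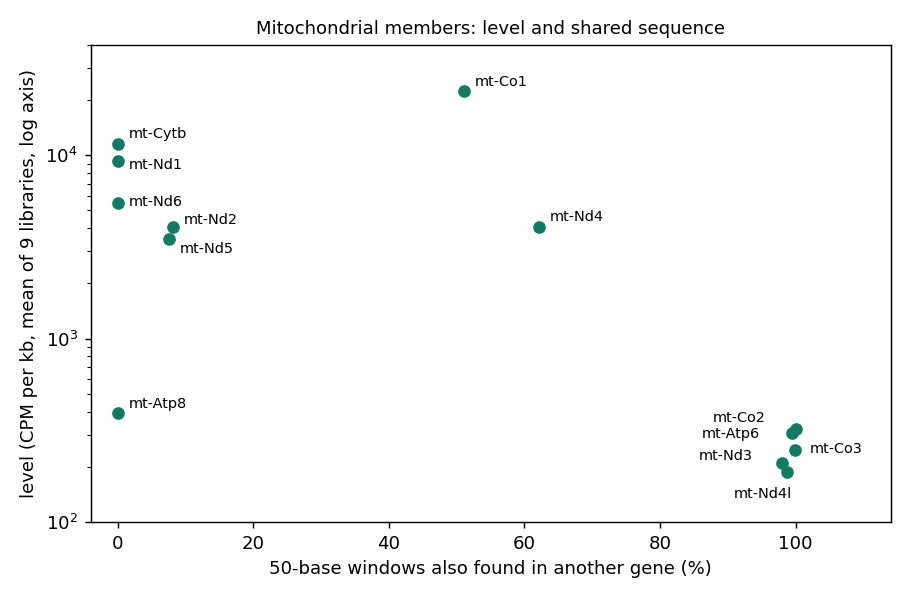
Level per kilobase of each mitochondrial member (CPM per kb, mean of the 9 libraries, log axis) against the share of its 50-base windows that also occur in an annotated transcript of another gene. The 5 genes with at least 98% shared lie at the bottom right, and mt-Atp8 lies at a like level with 0% shared, in a part of the chromosome 1 copy where no transcript is annotated.

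Among the nuclear subunits, the fall in TPN was found in the more abundant ones. The 40 subunits with the higher mean CPM had a median log2 fold change of -0.46 in TPN against sham, with 34 negative and 9 called lower, and the other 40 had -0.05, with 22 negative. All genes at or above the same level of 19.1 CPM had a median of -0.08, and those below it 0.08. In starvation the medians were -0.27 in the more abundant 40 and 0.18 in the others. Calls need reads, so the counts of calls in these 2 sets are not on equal terms.

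Nuclear core subunits, as sorted here, were the electron path of complex I, complex II, the catalytic subunits of complex III, and the F1 head and c ring. Of these 7 of 21 were lower in TPN, with a median of -0.55. All other nuclear subunits, among them the peripheral stalk of complex V, were sorted as accessory. They had 2 lower and 2 higher of 59 tested, with a median of -0.32. The 7 are Ndufs8, Ndufv1, Sdhc, Sdhd, Cyc1, Atp5a1 and Atp5g1, and complex IV has no nuclear core subunit. The core set holds abundant genes such as Atp5a1, and role was not separated from level. The difference between core and accessory subunits was not tested.

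Of the tested nuclear subunits 33 have no window in another gene, and 6 of these were lower in TPN, with a median of -0.39. The 47 with shared windows had 3 lower and 2 higher, with a median of -0.30. In starvation against sham the medians were -0.22 without and 0.07 with shared windows. The part of shared sequence in these values was not tested. The fold changes of nuclear subunits differed with base composition, and the direction was not the same in each comparison. Nuclear subunits with at least 51.7% GC had a median of -0.36 in TPN and the others -0.19, where all genes had -0.14 at or above that GC content and 0.07 below it. In starvation against sham the corresponding medians were -0.26 and 0.08 for nuclear subunits and -0.01 and -0.01 for all genes. In TPN against starvation they were -0.03 and -0.21 for nuclear subunits and -0.14 and 0.05 for all genes. The part of GC content in these differences was not tested.

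Genes of neighbouring steps, from lists made for this comparison, differed in how they moved. Of 26 tested genes of the tricarboxylic acid cycle and pyruvate dehydrogenase, 8 fell and 1 rose in TPN, with a median log2 fold change of -0.49. Dlst, a subunit of the 2-oxoglutarate dehydrogenase complex, had 238, 227 and 214 CPM in TPN, 395, 412 and 550 CPM in starvation and 498, 418 and 499 CPM in sham (-1.06 ± 0.18, edgeR adjusted p = 0.0105). Ogdh of the same complex fell by 1.01 on the log2 scale and Dlat of pyruvate dehydrogenase by 0.73. In starvation no gene of this list was called lower by edgeR, while 9 had an unadjusted p under 0.05, DESeq2 called 6 and limma voom 0. Pdk4, the kinase that switches off pyruvate dehydrogenase, rose in both, by 2.71 ± 0.33 in TPN and 2.09 ± 0.32 in starvation. Dlst, Ogdh and Pdk2 were also lower in TPN than in starvation, Ogdh at -1.05 ± 0.22 and Pdk2 at -0.89 ± 0.21.

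Among 17 nuclear regulators of mitochondrial genes 2 rose and 1 fell in TPN, where 3.48% of all genes tested were called higher and 5.12% lower. Nrf1, the factor named after nuclear respiratory genes, had 33.8, 33.5 and 31.6 CPM in TPN, 28.2, 27.3 and 28.7 CPM in starvation and 20.8, 18.7 and 16.7 CPM in sham. It rose by 0.81 ± 0.14 in TPN (edgeR adjusted p = 0.0101), and in starvation its value was 0.58 ± 0.14 (edgeR adjusted p = 0.0510). Ppara, a nuclear receptor of fasting, rose in TPN by 1.87 ± 0.29 and Ppard fell by 1.27 on the log2 scale. Ppargc1a, the coactivator of mitochondrial biogenesis, had 57.9, 44.9 and 47.2 CPM in TPN, 67.7, 80.7 and 85.7 CPM in starvation and 65.7, 51.7 and 74.4 CPM in sham, with no call against sham by edgeR.

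Genes that copy, transcribe and process mitochondrial DNA and RNA had none of 31 called in TPN against sham by edgeR and a median of 0.22. At an unadjusted p under 0.05 2 were higher and 2 lower, DESeq2 called 1 higher and limma voom 0. Tfam, which packs mitochondrial DNA and starts its transcription, was at 0.24 ± 0.23 in TPN and at 0.00 ± 0.23 in starvation. In starvation Polg2, the accessory subunit of the mitochondrial DNA polymerase, rose by 1.06 ± 0.22 and Rexo2, an oligoribonuclease, fell by 1.00 on the log2 scale.

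Of 44 assembly factors outside the symbol rule 1 rose and 3 fell in TPN, near the shares of all genes tested, 3.48% higher and 5.12% lower. Cox20, which assists mt-Co2 in complex IV assembly, had 35.6, 32.7 and 36 CPM in TPN, 39.4, 36.6 and 30.8 CPM in starvation and 21.2, 13.4 and 16.4 CPM in sham, and rose in both (1.03 ± 0.19 and 1.06 ± 0.19, edgeR adjusted p = 0.0130 and 0.0243). Atpaf1, an assembly factor of complex V, fell in TPN by 0.78 on the log2 scale, Foxred1 of complex I by 0.75 and Coa7 of complex IV by 0.81. Cox16 rose in starvation by 1.30 ± 0.26.

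Of 18 tested genes of ATP export, ATP synthase inhibition and the outer membrane, 1 was called lower in TPN and 1 in starvation. Over all genes tested 5.12% and 1.14% were called lower. In TPN against sham the list had a median log2 fold change of -0.33, with 16 negative and 2 positive. Without overlap 12 lay below sham and 0 above, against 21.4% and 21.3% of all genes. In starvation the median was -0.17. Atpif1, the protein that blocks ATP hydrolysis by complex V, had 54.4, 50.2 and 53.2 CPM in TPN, 30.9, 25.5 and 38.3 CPM in starvation and 61.2, 67.5 and 59.1 CPM in sham. It fell in starvation by 0.99 on the log2 scale (SE 0.16, edgeR adjusted p = 0.0192) and was higher in TPN than in starvation by 0.74 ± 0.16. Ucp2, an inner membrane carrier, fell in TPN by 0.91 on the log2 scale (SE 0.18). Among 14 tested electron carriers and coenzyme Q genes, Coq2 and Pdss2 of coenzyme Q synthesis rose in TPN by 0.82 ± 0.22 and 0.83 ± 0.22. Cycs, cytochrome c, had 238, 174 and 204 CPM in TPN, 223, 287 and 590 CPM in starvation and 396, 641 and 375 CPM in sham, at -1.20 ± 0.36 in TPN (edgeR adjusted p = 0.0717).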

How the data were processed

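The values are whole-number counts of reads for each gene, deposited unscaled by the authors. Per the submitters' processing notes, STAR 2.7.2e, featureCounts 2.0.0, cutadapt 2.9, FastQC 0.11.8 and DESeq2 1.32.0 were among the tools. Which annotation and strand setting were used, and what was done with reads of several possible origins, is not given in the sources used here. A further 9 count columns matched no label and were not used.

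From the counts, edgeR 4.0.16 in R 4.3.3 kept 14668 genes by filterByExpr and fitted its quasi-likelihood test to all 9 libraries with 1 mean for each group (TMM scaling, 6 residual degrees of freedom). P-values were adjusted by Benjamini-Hochberg over these genes, and the SE is the log2 fold change divided by the square root of F. The script was tested on simulated data. The common dispersion was 0.0987, and the chi-square per gene between libraries of a group was 8.02 to 125, so no pair agreed within sampling noise. Reads have no molecular identifiers, so the level that 0 reads allow (3 counts) covers counting error only.

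Positions and transcripts came from GENCODE M21 on GRCm38, and lengths from the longest principal transcript. Windows of 50 bases were searched in all its transcripts, on both strands. Promoters came from RefSeq on GRCm38.p6, and none on chromosome 18 was used.

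The members, the roles, the lists of other genes and markers, and the rule for named genes were chosen with earlier results of these data known. The rule named all 13 mitochondrial genes, up to 3 nuclear members per complex and comparison with the smallest adjusted p, the isoform pairs, complex II, and up to 4 genes per other list. Alternatives were DESeq2 1.42.0, limma 3.58.1 with voom weights, other scaling factors, library totals only, scaling without mitochondrial genes, no filter, CPM of at least 1 in 3 libraries, only the groups compared, a replicate block, a smooth muscle covariate, an adjusted p under 0.01, each library left out in turn, and sham replicate 2 with starvation replicate 3 left out.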

Additional observations from a re-analysis of the deposited data

How the results depend on the processing

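The 21 alternative fits to the members' calls were edgeR with 1 choice changed, DESeq2 or limma voom. Across the 21 member calls and the settings that gave a value, 253 of 441 kept the call, 188 did not pass, and 0 turned sign. The nuclear median stayed below 0 in TPN against sham in all 21 alternatives (-0.37 to -0.15). In each comparison it lay below the mitochondrial median in all 21.

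Counts are given as higher and lower, with 2 and 10 in TPN against sham, 2 and 3 in starvation against sham and 2 and 2 in TPN against starvation as reported. DESeq2 gave 6 and 21, 8 and 13, and 3 and 7. Over all genes it gave 1035 and 1386, 997 and 657, and 692 and 1099. Fits of only the groups compared gave 5 and 21, 0 and 0, and 1 and 0 members. The same fits called 1130 and 1644, 2 and 0, and 250 and 295 over all genes. With so few calls in starvation against sham, the lack of member calls there says nothing particular to the members. With both sham replicate 2 and starvation replicate 3 left out the member counts were 11 and 24, 8 and 26, and 10 and 7. Those of all genes were 2232 and 2193, 1612 and 1337, and 1500 and 1705. The smooth muscle covariate gave 0 and 2, 0 and 1, and 3 and 4 members, and 166 and 343, 134 and 95, and 458 and 790 genes. An adjusted p under 0.01 left 0 and 1, 0 and 0, and 0 and 0 members. Among higher calls in TPN against sham, DESeq2 size factors gave 1, library totals 4, upper quartile factors 4 and no filter 0. Among lower member calls in TPN against starvation, DESeq2 size factors gave 0 and library totals, limma voom, upper quartile factors and no filter gave 1 each. Over all genes these settings gave 497, 430, 532, 493 and 505. Leaving out 1 library in turn gave 0 to 7 members higher and 1 to 23 lower in TPN against sham. It gave 0 to 2 and 0 to 21 in starvation against sham, and 0 to 4 and 0 to 4 in TPN against starvation. Over all genes the ranges were 83 to 1477 and 125 to 1705, 22 to 945 and 10 to 794, and 43 to 482 and 81 to 826. The cause of these changes was not tested.

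With the replicate number as a block, 0 members were higher and 2 lower in TPN against sham, and 0 and 0 in each of the other comparisons. Over all genes that fit called 203 and 353 in TPN against sham. It called 48 and 23 in starvation against sham, and 133 and 253 in TPN against starvation. Same-numbered libraries had correlations of their deviations between -0.3 and 0.378, so the numbers were not taken as pairs.

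The nuclear median of TPN against sham was -0.15 with library totals, -0.26 with upper quartile factors, -0.15 with the muscle covariate, -0.22 with both libraries out and -0.37 to -0.25 with 1 library out. Library totals moved the median of all genes in TPN against sham by 0.19, and relative to it the nuclear median was -0.32, as in the reported fit. The nuclear median of starvation against sham was 0.00 with the muscle covariate. That of TPN against starvation was 0.00 with library totals and ran from -0.22 to -0.01 with 1 library out. The mitochondrial median of TPN against sham was 0.30 with library totals and 0.35 with the muscle covariate. Depth limits the low genes, such as Ndufs5 at 1.55 to 12.5 CPM.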

Other observations

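Within a library, reads of members of the same complex can be set against each other without any scaling between libraries. The pairs below were chosen after their values were seen and were not tested. There were 14.7, 14.3 and 20.2 Sdhd reads per Sdhb read in the TPN libraries, 16.3, 15.3 and 15.9 in the starvation libraries and 39, 43.3 and 33.1 in the sham libraries. TPN and starvation overlapped and sham lay above both. Atp5g1 reads per Atp5g2 read were 10.9, 10.8 and 9.2 in TPN, 7.18, 11.8 and 10.1 in starvation and 31.4, 27.7 and 33 in sham. Again sham lay apart, and 38.3% of the windows of Atp5g2 are shared with other genes. Atp5g1 reads per Atp5g3 read were 1.87, 2.43 and 1.59 in TPN, 1.59, 2.21 and 0.943 in starvation and 2.5, 1.35 and 2.58 in sham, where the groups overlapped.

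Ndufa1, an accessory subunit of complex I encoded on the X chromosome, was at 0.238 to 0.881 CPM in TPN, 0.116 to 0.798 CPM in starvation and 0.196 to 1.17 CPM in sham, and was not tested. Its mean level was 1.16 CPM per kilobase, while the median over the 40 tested nuclear subunits with transcripts under 863 bases was 19.3 CPM per kilobase. None of its windows is shared with another gene. Across the 80 tested nuclear subunits the rank correlation of transcript length with CPM per kilobase was 0.13, as a description over genes of the same 9 libraries.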
